A study of Homo sapiens with 4 samples.

Results

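The genes described here encode subunits of the respiratory chain and of the ATP synthase, the protein complexes of the mitochondrial inner membrane that carry out oxidative phosphorylation. They were chosen by symbol, from probe sets whose annotation names 1 gene alone: NDUFA, NDUFB, NDUFC, NDUFS and NDUFV genes of complex I, SDH genes of complex II, UQCR genes of complex III, COX4 to COX8 genes of complex IV, and ATP5F1, ATP5M and ATP5P genes of complex V. Assembly factors and pseudogenes were left out, and the brightest probe set stood for each gene. The rule gave 76 of the 19775 genes that have such a probe set, 33 in complex I, 3 in complex II, 6 in complex III, 17 in complex IV and 17 in complex V. NDUFS5, NDUFS8, NDUFC2 and UQCRH are represented only by probe sets that name several genes and were not used here. Subunits encoded by mitochondrial DNA do not carry these symbols and were not analysed here.

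The study asked how 2 human breast cancer cell lines respond when the amino acid transporter LAT1 is inhibited with JPH203. MDA-MB-231 is a triple negative line, and T-47D is a line from a ductal carcinoma that expresses the estrogen and progesterone receptors. Each line was grown in RPMI1640 medium and exposed for 24 h to 100 μM JPH203, or to the same concentration of Captisol, a modified cyclodextrin that served as the vehicle and is called control below. Total RNA of each condition was hybridised to 1 Affymetrix U133 Plus 2.0 array, 4 arrays in all, so no ratio below has an error, a replicate check or a p-value, and each one compares 2 arrays. Signal intensity is in arbitrary units, and each array had been scaled to the same mean of 100. A gene was measured in a comparison when its signal was at least 100 on both arrays, and it was called when one signal was at least 2 times the other, a ratio of 2 and above or of 0.5 and below. A milder threshold of 1.5-fold was read beside it.

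Complex I oxidises NADH and passes the electrons to ubiquinone, and complex II does the same for succinate. Complex III hands the electrons from ubiquinol to cytochrome c, and complex IV passes them on to oxygen. Complexes I, III and IV pump protons as they do so, and complex V lets the protons flow back and makes ATP. Each complex except complex II joins catalytic or core subunits with many small accessory subunits, and nearly all cell types express most of the set. Regulators known to act on many of these genes include NRF1, GABPA of the ETS family, ESRRA, YY1 and the PGC-1 coactivators.

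Most of the subunit genes were strongly expressed. On each MDA-MB-231 array 69 of the 76 genes had a signal of at least 100, and on each T-47D array 70 of them. Over these genes the median signal was 2173 with JPH203 and 2416 in the control of MDA-MB-231, and 6036 with JPH203 and 4845 in the control of T-47D. Between 10831 and 11857 of the 54675 probe sets reached 100 on an array. ACTB, whose 3-prime over 5-prime signal is a sign of RNA quality, had a value of 1.44 with JPH203 and 1.45 in the control of MDA-MB-231, and 1.72 with JPH203 and 1.39 in the control of T-47D. For GAPDH this value was 1.01 with JPH203 and 0.987 in the control of MDA-MB-231. In T-47D it was 0.867 with JPH203 and 0.940 in the control, the other direction from ACTB. All 8 luminal markers had a higher signal in the T-47D control, with CDH1, the epithelial cadherin, at 1.4 in MDA-MB-231, against 5666 in T-47D, and all 5 mesenchymal markers with a probe set had a higher signal in MDA-MB-231, with VIM, vimentin, at 8156 there and 56.5 in T-47D. ASNS, asparagine synthetase and a target of the amino acid response, was 8.93-fold higher with JPH203 in MDA-MB-231 and 4.31-fold higher in T-47D.

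The 6 genes below 100 on every array included the isoforms known from particular tissues or conditions. COX4I2, induced by low oxygen, had signals of 27.3 to 63.3, and COX6A2 and COX7A1, the heart and muscle isoforms, had signals of at most 19.6 and of 1.2 to 2.1. COX6B2 and COX8C, known from testis, stayed at or below 24.1 and 6.2. The only probe set that names ATP5MF alone had signals of 1.0 to 3.3, while the widely expressed isoforms COX4I1, COX6A1, COX6B1, COX7A2 and COX8A were measured in all conditions. COX7B2, a paralogue of COX7B known from testis, was the exception. Its signal was 515 with JPH203 and 246 in the control of T-47D, against 25.2 with JPH203 and 23.6 in the control of MDA-MB-231.

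**Figure D1:**
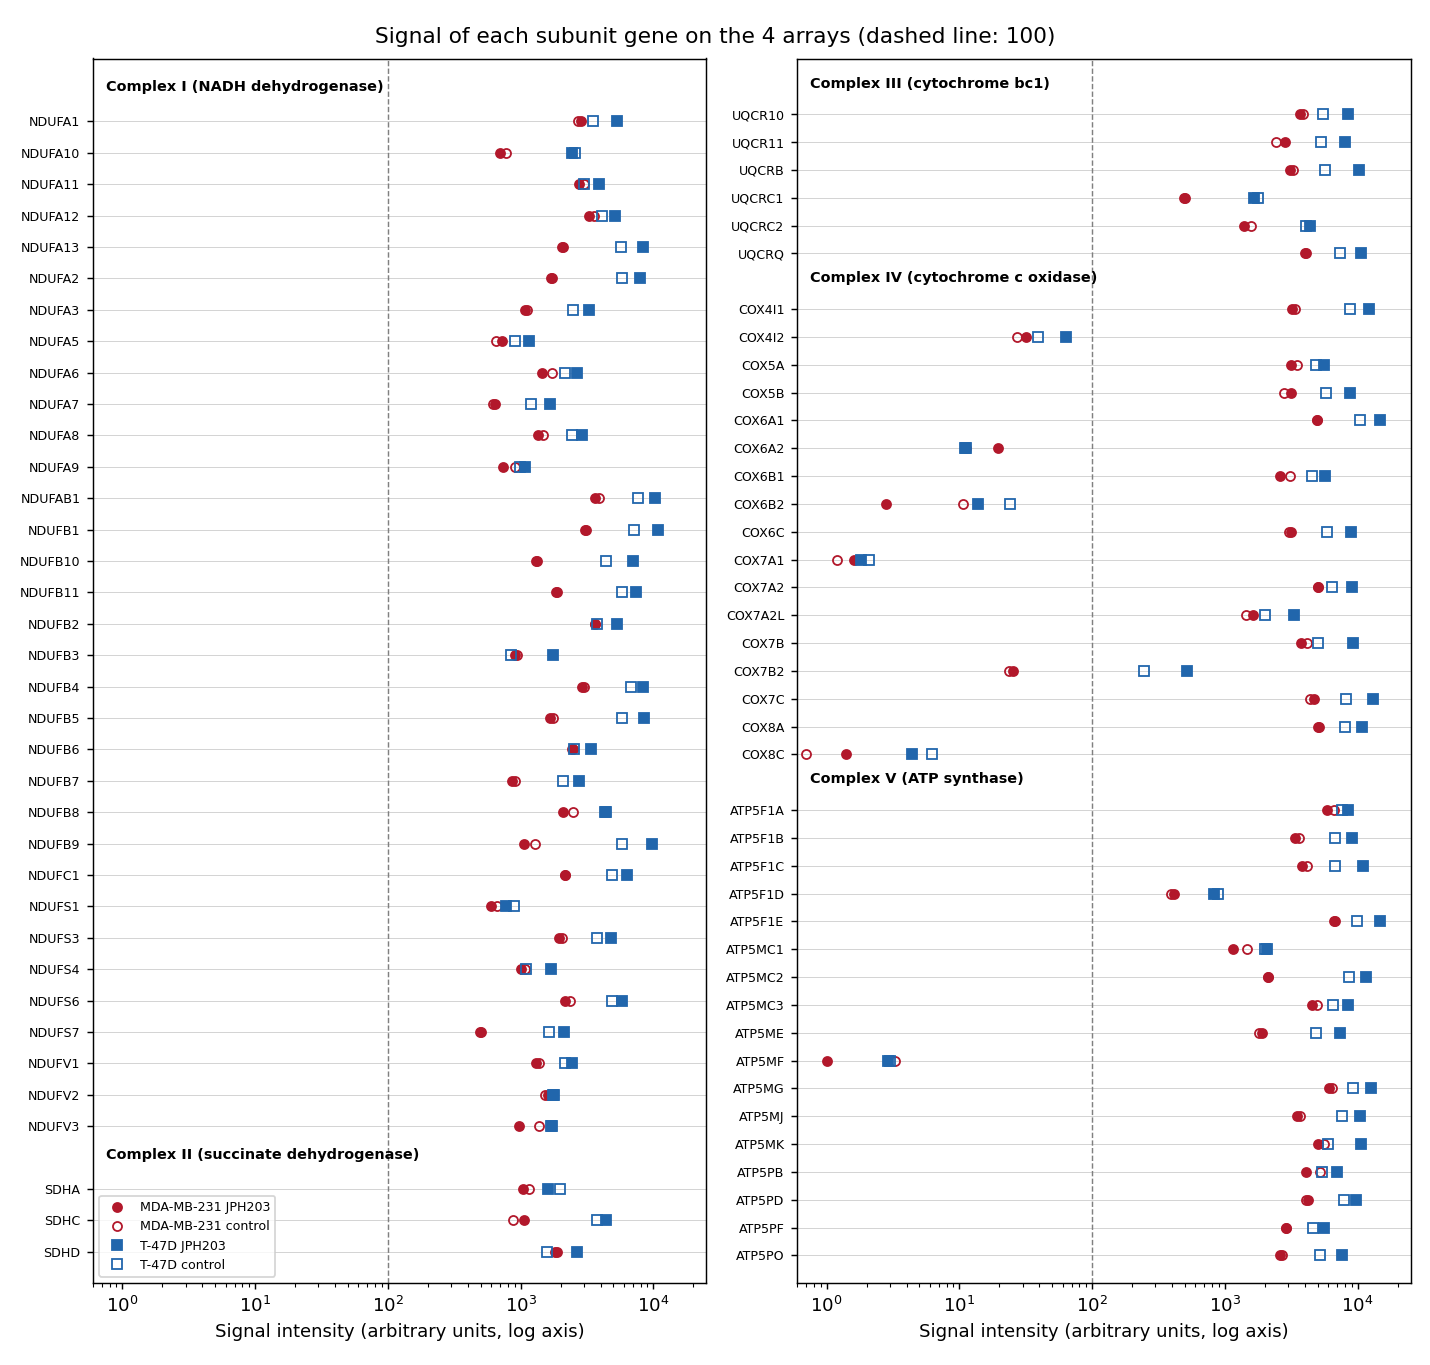
Signal intensity of each of the 76 subunit genes on the 4 arrays, in arbitrary units on a log axis, with genes listed by complex. Filled symbols are JPH203 and open symbols control, circles are MDA-MB-231 and squares T-47D, and the dashed line marks a signal of 100. For most genes the circles of MDA-MB-231 lie on each other and left of the squares of T-47D, and the filled square lies right of the open one for 64 of the 70 genes measured in T-47D. Both orders are those of the deposited scale and turn for most genes when the arrays are scaled to the poly-A spike-ins.

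In T-47D cells the subunit genes had moderately higher signals with JPH203. Of 70 genes measured, 64 had a ratio over 1, against 48.3% of all 6416 genes measured, and the median ratio was 1.34 for the subunits and 0.985 for all genes. The ratios ran from 0.815 to 2.09. At 1.5-fold, 18 of the 70 genes, or 25.7%, were higher, against 11.6% of all genes, and 0 were lower, against 13.6%. At 2-fold only NDUFB3 and COX7B2 were called, 2 of 70 against 4.64% of all genes in either direction and 2.23% that were higher. Without them the median ratio was 1.33. With the poly-A spike-ins as the scale the median log2 ratio of the subunits was -0.22 in place of 0.42, so its sign is that of the deposited scale. The same scaling moved the median of all genes to -0.67, and the subunit median minus that of all genes stayed at 0.44.

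That difference moved with several technical quantities. The hybridization controls, labelled transcripts added just before hybridization, had a geometric mean ratio of 1.25 between the T-47D arrays (18 probe sets, 1.10 to 1.44), and the poly-A spike-ins, added to the RNA before labelling, one of 1.56 (24 probe sets, 1.31 to 1.79). Ratios also moved with signal. Genes outside the set with a mean signal under 1000 had a median ratio of 0.938, those of 1000 to 2000 had 1.10, those of 2000 to 4000 had 1.19, and those over 4000 had 1.36. The subunit genes in the same ranges had medians of 0.936 (3 genes), 1.18 (10 genes), 1.30 (11 genes) and 1.39 (46 genes). Subunit genes are also short, with a median genomic length of 10.8 kb against 27.0 kb for all genes measured. Among genes with a signal over 2000 and a length under 20 kb, the 48 subunits had a median ratio of 1.37 and the 436 other genes one of 1.34. After a loess fit of the ratio on signal, 44 of the 70 subunits were higher and 26 lower with a median log2 ratio of 0.064, and after quantile normalization 41 were higher and 29 lower with a median of 0.055. Other bright, short genes thus had nearly the same median in T-47D, and the part of each technical quantity in it was not tested.

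**Figure D2:**
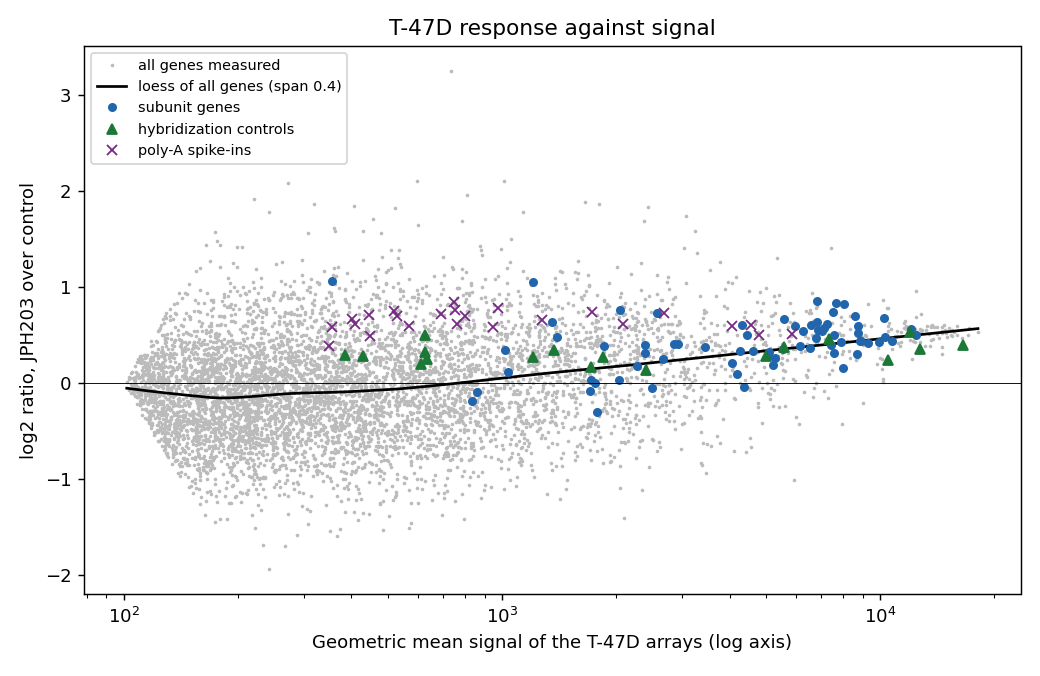
The log2 ratio of JPH203 over control in T-47D against the geometric mean signal of both T-47D arrays (log axis). Grey points are all genes measured, the black line is their loess fit, blue points are the subunit genes, green triangles the hybridization controls and purple crosses the poly-A spike-ins. The 46 subunits with a signal over 4000 lie around a median ratio of 1.39 where other genes have 1.36, and the poly-A spike-ins, at 1.56, lie above most of them, so that scaling to the spike-ins turns the direction.

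Among complexes, the medians in T-47D lay between 1.16 and 1.48. Of all genes measured in T-47D, 48.3% had a ratio over 1 and 11.6% were 1.5-fold higher. Complex IV had all 12 measured genes over 1, a median of 1.45 and 5 genes at 1.5-fold. Complex III had 5 of 6 over 1, a median of 1.48 and 3 genes at 1.5-fold. Complex V had 15 of 16 over 1, a median of 1.35 and 3 genes at 1.5-fold, and complex I had 30 of 33, a median of 1.30 and 6 genes at 1.5-fold. Complex II, with 3 genes, had 1.16. The ranges of the complexes overlapped widely, and the order of these medians was not tested. The measured members of other large complexes, a comparison chosen after the values were seen, had medians of 1.46 for 54 cytosolic ribosomal proteins, 1.37 for 74 mitochondrial ribosomal proteins and 1.21 for 33 proteasome subunits. Medians of this size were thus also seen outside the respiratory chain.

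**Figure D3:**
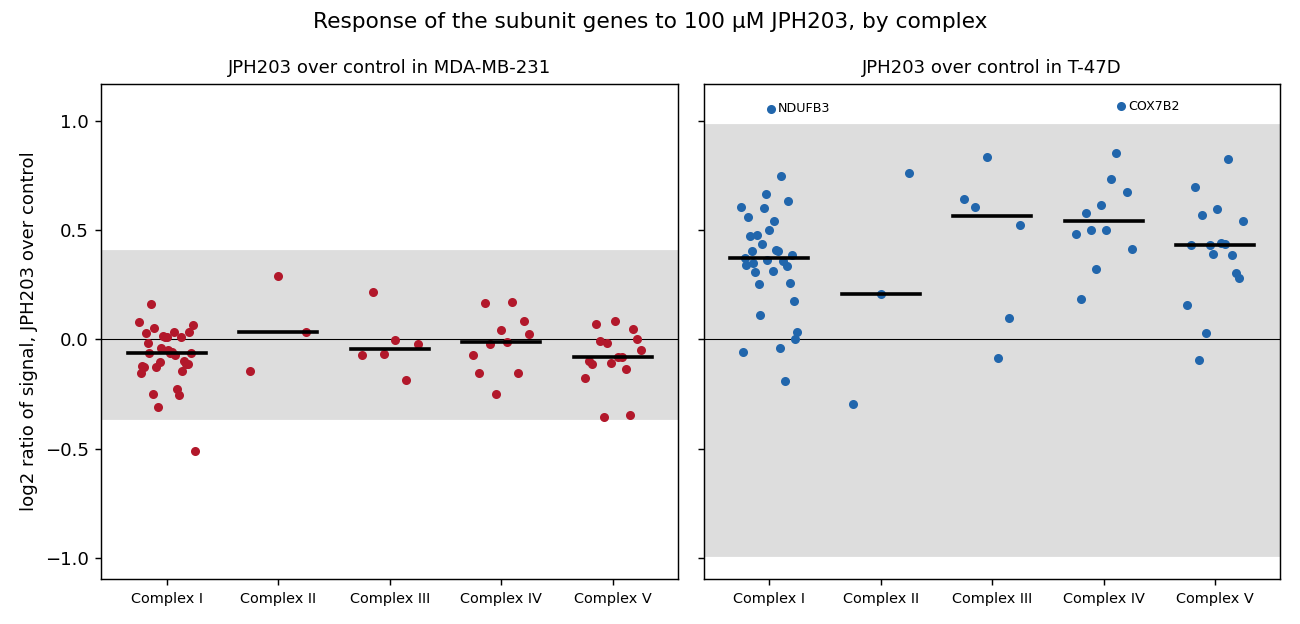
The log2 ratio of JPH203 over control for each measured subunit gene, by complex, in MDA-MB-231 (left, 69 genes) and T-47D (right, 70 genes). Black bars are medians, and the grey band holds the central 95% of all genes measured in that line, 0.778 to 1.32 in MDA-MB-231 and 0.503 to 1.97 in T-47D as ratios. In T-47D only NDUFB3 and COX7B2 lie above the band. Scaling to the poly-A spike-ins turns the sign of the subunit median in both lines, but moves all genes and the band alike.

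NDUFB3 encodes an accessory subunit of the membrane arm of complex I. Its signal was 1744 with JPH203 and 839 in the control of T-47D, a ratio of 2.08, and 904 with JPH203 and 935 in the control of MDA-MB-231, a ratio of 0.968. The T-47D array with JPH203 stood apart from the other 3, which lay close together. The call rests on 1 probe set and was lost after quantile normalization (1.90), loess on signal (1.96), removal of the gene length trend (1.98), loess with the length trend removed (1.85), and scaling to the hybridization controls (1.67) or the poly-A spike-ins (1.33). COX7B2 had a ratio of 2.09 in T-47D, also from 1 probe set. It was still called after quantile normalization (2.12) and loess (2.24), but not after scaling to the hybridization controls (1.68) or the poly-A spike-ins (1.34).

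The other 5 complex I subunits at 1.5-fold or more in T-47D were accessory subunits too. NDUFB9 had 9725 with JPH203 and 5803 in the control of T-47D, a ratio of 1.68, and NDUFB10 had 7019 and 4434 in the same order, a ratio of 1.58, with a second probe set at 1.87. NDUFB1 stood at 10774 with JPH203 against 7110 in the control, a ratio of 1.52. NDUFS4, whose product is needed for the last steps of complex I assembly, and NDUFA1, both picked after their values were seen, had ratios of 1.55 and 1.52. NDUFAB1, among the brightest complex I genes, stayed below 1.5-fold. It had 10285.5 with JPH203 and 7600 in the control of T-47D, a ratio of 1.35. The core subunits, some of which carry the flavin and iron-sulfur clusters, had smaller ratios. Over NDUFS1, NDUFS3, NDUFS7, NDUFV1 and NDUFV2 the median was 1.13, against 1.32 over the 28 other subunits. At 1.5-fold 0 of these 5 were higher, where 11.6% of all genes were. The core genes also had a lower median signal over the T-47D arrays, 1864 against 4341, and this split was made after the values were seen.

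In complex II the 3 measured genes differed. SDHD, a membrane anchor that binds ubiquinone, had 2668 with JPH203 and 1575 in the control of T-47D, a ratio of 1.69. SDHC, the other anchor, had 4375 with JPH203 and 3785 in the control, a ratio of 1.16, while 3 further SDHC probe sets with signals over 100 on all arrays gave 1.32 to 1.42. A dimmer one, over 100 in T-47D alone, went the other way with a ratio of 0.795. SDHA, the flavoprotein that oxidises succinate, had 1615 with JPH203 and 1983 in the control, a ratio of 0.815 and the lowest of all 70 genes. SDHB was not analysed here.

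In complex III, UQCRC1 and UQCRC2, the core proteins that face the matrix, had ratios of 0.942 and 1.07, with UQCRC1 at 1660 with JPH203 against 1761 in the control and UQCRC2 at 4348 against 4055. UQCRB, a small subunit near the ubiquinone site, stood at 10181 with JPH203 against 5719, a ratio of 1.78, and its 2 other probe sets over 100 gave 2.03 and 2.37. UQCR10 had 8524 with JPH203 and 5468 in the control (1.56), UQCR11 had 8081 and 5320 (1.52), and UQCRQ had 10512 and 7317 (1.44). A second, dimmer probe set gave 1.56 for UQCR10 but only 1.07 for UQCR11, at 154 with JPH203 against 144 in the control. CYC1, the cytochrome c1 subunit whose symbol lies outside the rule, was picked after its values were seen. It had 6431 with JPH203 and 4154 in the control, a ratio of 1.55. The 4 small subunits lay on brighter probe sets, with a median over the T-47D arrays of 7218 against 2679 for the 2 core proteins, a grouping made after the values were seen.

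In complex IV the nuclear subunits surround the catalytic core, which mitochondrial DNA encodes. COX7B had 9144 with JPH203 and 5058 in the control of T-47D, a ratio of 1.81. COX7C stood at 12948 against 8114, a ratio of 1.60, and its 2 other probe sets gave 1.56 and 2.06. COX7A2L, which links complexes III and IV into supercomplexes, had 3312 with JPH203 and 1994 in the control, a ratio of 1.66, and COX6C, picked after its values were seen, had a ratio of 1.53. The widely expressed isoforms followed with smaller ratios, 1.40 for COX4I1, 1.41 for COX6A1, 1.25 for COX6B1, 1.41 for COX7A2 and 1.33 for COX8A.

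ATP synthase consists of the catalytic F1 head, a ring of c subunits, a peripheral stalk and small membrane subunits. ATP5MK, a small subunit that helps dimers of the enzyme form, had 10666 with JPH203 and 6023 in the control of T-47D, a ratio of 1.77. ATP5F1C, the gamma subunit in the central shaft, had 10915 with JPH203 and 6739 in the control, a ratio of 1.62, and all 3 of its probe sets over 100 gave 1.62. ATP5ME had a ratio of 1.51. ATP5F1E, the epsilon subunit, had 14665 with JPH203 and 9901 in the control (1.48), and ATP5MG had 12519 and 9233 (1.36). ATP5MC1, ATP5MC2 and ATP5MC3 encode the same mature c subunit. Their ratios were 1.02, 1.35 and 1.31, with ATP5MC1 at 2061 with JPH203 against 2017 in the control and ATP5MC2 at 11549 against 8570. Medians were 1.35 for the F1 head, 1.31 for the c subunit genes, 1.27 for the peripheral stalk and 1.43 for the small membrane subunits.

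The 6 genes with a ratio under 1 in T-47D were SDHA (0.815), NDUFS1 (0.877), ATP5F1D (0.936), UQCRC1 (0.942), NDUFA10 (0.963) and NDUFB8 (0.972), against 51.7% of all genes, of which NDUFS1 and NDUFB8 were picked after their values were seen. None reached 1.5-fold. Of 21 genes with several probe sets over 100 on both T-47D arrays, 18 had all of them on the same side of 1, and in the other 3 none of the opposed probe sets passed 1.5-fold on both sides.

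The promoters of the subunit genes were searched for sites of the known regulators, because most of the genes shared a direction in T-47D on the deposited scale. RefSeq promoters of GRCh38.p14, from 250 bases before to 50 bases after the start of a gene, were matched for 65 of the 76 genes, and both strands were read. The NRF1 motif, a palindrome of GCGCA followed directly by its reverse complement TGCGC, was found in 4 of these 65 promoters, or 6.15%, against 1.36% of 27305 promoters and 2.86% of those of genes measured in T-47D. The ETS motif CCGGAAG was in 27.7% of them, against 10.7% of all promoters and 23.5% of measured genes, and the YY1 motif AAGATGGC in 15.4%, against 3.03% and 7.18%. The motif of the amino acid response, TGATGNAA, to which ATF4 binds, was in 1 of 65, or 1.54%, against 3.67% and 1.77%. No site of one motif overlapped a site of another. Among subunits at 1.5-fold or more in T-47D, 2 of 15 promoters held the NRF1 motif, 5 the ETS motif and 1 the YY1 motif, against 2, 13 and 9 of 47 for the other measured subunits. A match is a description of the letters and not a binding site.

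Stretches of 60 bases around the NRF1 motif are shown for the 3 genes in which it lies wholly before the start, ATP5F1C at chr10:7788117-7788176 (plus strand), NDUFB4 at chr3:120596152-120596211 (plus strand) and SDHD at chr11:112086738-112086797 (plus strand). They are printed 5′ to 3′ with the motif in capitals, and the ratios in T-47D were 1.62, 1.24 and 1.69 in this order.
ATP5F1C: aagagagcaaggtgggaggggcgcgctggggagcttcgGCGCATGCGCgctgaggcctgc
NDUFB4: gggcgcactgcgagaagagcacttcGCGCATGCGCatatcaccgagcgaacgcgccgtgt
SDHD: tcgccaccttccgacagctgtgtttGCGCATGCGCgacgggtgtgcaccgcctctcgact

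For the genes called at 2-fold in T-47D, the 100 bases before the start are shown in lower case, NDUFB3 at chr2:201071901-201072000 (plus strand) and COX7B2 at chr4:46909246-46909345 (minus strand). Neither promoter held any of the 4 motifs, which says only that these letters are not in the window.
NDUFB3: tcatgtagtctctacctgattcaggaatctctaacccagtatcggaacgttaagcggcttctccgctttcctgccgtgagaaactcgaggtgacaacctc
COX7B2: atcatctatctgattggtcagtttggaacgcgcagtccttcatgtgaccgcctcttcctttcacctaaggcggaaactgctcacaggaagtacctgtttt

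In MDA-MB-231 cells the same dose left the subunit genes close to their control levels. Of 69 genes measured, 0 were called at 2-fold, against 0.103% of all 6777 genes, and 0 at 1.5-fold, against 0.871%. The ratios ran from 0.703 to 1.22 with a median of 0.958, and 46 of the 69 genes were under 1, against 51.5% of all genes. The median of all genes was 0.995. The median log2 ratio of the subunits, -0.062 as deposited, was 0.048 with the poly-A spike-ins as the scale, so its sign is that of the deposited scale. The same scaling moved the median of all genes to 0.103. The subunit median minus that of all genes stayed at -0.055, and was -0.017 after loess on signal. Medians of complexes I to V were 0.958, 1.02, 0.970, 0.991 and 0.946, while mitochondrial ribosomal proteins had 0.920 and proteasome subunits 0.913.

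NDUFV3, which encodes a small subunit of the NADH-binding part of complex I and was picked after its values were seen, was the only subunit outside the band that held the central 95% of genes in MDA-MB-231. It had 965 with JPH203 and 1373 in the control, a ratio of 0.703. Its other probe set went the other way, at 125 with JPH203, but its control signal was under 100, and with the mean of both probe sets the NDUFV3 ratio was 0.963. In T-47D it had 1738 with JPH203 and 1699 in the control, a ratio of 1.02. Among the c subunit genes of ATP synthase, ATP5MC1 had 1142.5 with JPH203 and 1462 in the control of MDA-MB-231, a ratio of 0.781, while ATP5MC2 and ATP5MC3 had 0.988 and 0.928. SDHC had the highest ratio, 1066 with JPH203 against 872 in the control, or 1.22, and its other probe sets over 100 gave 0.934 to 1.13. Of 20 genes with several probe sets over 100 in MDA-MB-231, 9 had them on the same side of 1 and 11 did not, so ratios of this size were not stable across probe sets of a gene.

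Set side by side, of the 69 genes measured in both lines 41 were lower with JPH203 in MDA-MB-231 and higher in T-47D, 22 were higher in both, 5 were lower in both and 1 was higher in MDA-MB-231 and lower in T-47D. These joint counts were not made for all genes. Taken line by line, 51.5% of all genes measured were under 1 in MDA-MB-231 and 48.3% were over 1 in T-47D. The difference between the lines was not tested. UQCRB had ratios of 0.954 in MDA-MB-231, against 1.78 in T-47D, COX7B of 0.898 and 1.81, and ATP5MK of 0.912 and 1.77 in the same order.

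Between the control arrays, the subunit genes had lower signals in MDA-MB-231 than in T-47D. Of 69 genes measured, 67 had a ratio of MDA-MB-231 over T-47D under 1, against 49.1% of all 5688 genes, and the median ratio was 0.557 for the subunits and 1.01 for all genes. At 2-fold 25 genes, or 36.2%, were lower in MDA-MB-231, against 16.1% of all genes, and 0 were higher, against 16.3%. At 1.5-fold 42 genes were lower, against 27% of all genes. These ratios share each line's control array with the JPH203 comparisons, so the 2 kinds of ratio are not independent. In bulk samples of this kind, fewer cells that express a gene and less of its RNA per cell cannot be told apart.

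The hybridization controls had a geometric mean ratio of 0.688 between the control arrays (0.602 to 0.812), and the poly-A spike-ins one of 0.307 (0.234 to 0.373). Scaling to the hybridization controls left 44 of the 69 genes lower in MDA-MB-231 with a median log2 ratio of -0.30, in place of -0.84. Scaling to the poly-A spike-ins turned the direction, with 60 genes higher in MDA-MB-231 and a median log2 ratio of 0.86, while the median of all genes moved to 1.72. Such a scaling moves every gene alike and cannot change how the subunits lie relative to other genes. Their median log2 ratio minus that of all genes was -0.86 as deposited, -0.67 after quantile normalization, -0.63 after loess on signal, -0.58 after removal of the gene length trend, -0.54 with the mean of all probe sets and -0.40 after loess with the length trend removed. Among genes with a signal over 2000 and a length under 20 kb, the 42 subunits had a median ratio of 0.537 and the 324 other genes one of 0.833 (upper quartile 1.12, lower quartile 0.625). Bright and short genes thus had lower ratios too, but the subunits lay below most of them. The part of the spike-in difference in the result was not tested.

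**Figure D4:**
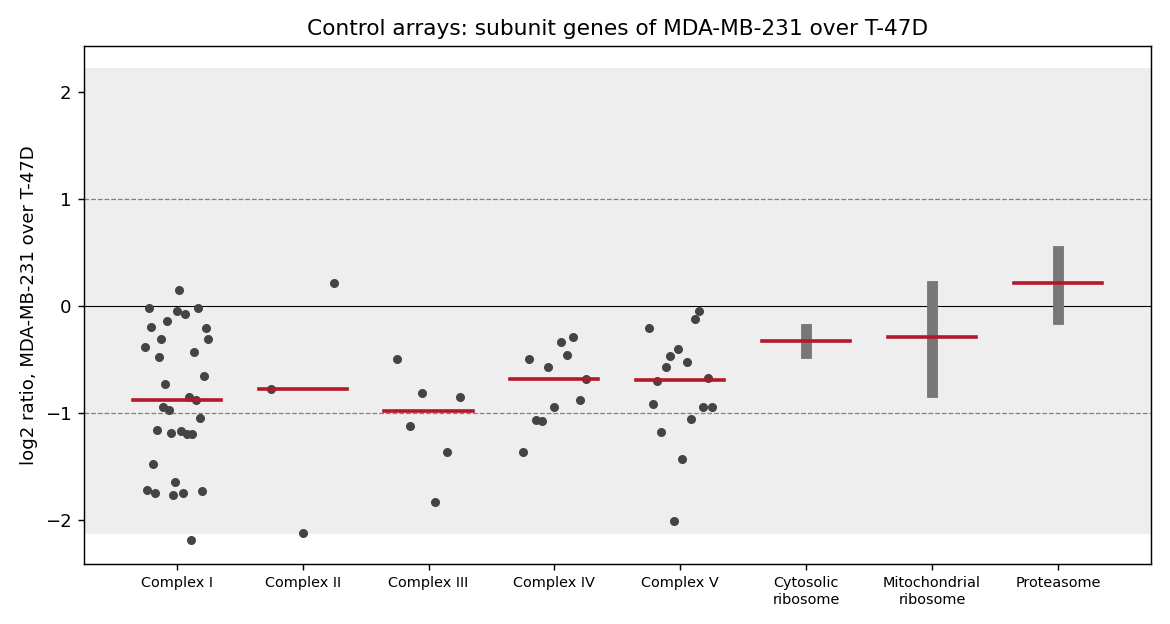
The log2 ratio of the MDA-MB-231 control over the T-47D control for each measured subunit gene, by complex, with red bars at the medians. For ribosomal, mitochondrial ribosomal and proteasome genes the grey bars span the quartiles, dashed lines mark 2-fold, and the shaded band holds the central 95% of all genes (0.230 to 4.64 as ratios). All 5 complexes have medians between 0.506 and 0.622, below the 0.800, 0.821 and 1.16 of the 3 other groups, on the deposited scale, and scaling to the poly-A spike-ins turns the direction against T-47D.

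Every complex had a median well under 1 on the deposited scale. Complex I had 0.545, with 14 of 33 genes 2-fold lower in MDA-MB-231, complex II 0.584 with 1 of 3, complex III 0.506 with 3 of 6, complex IV 0.622 with 3 of 11 and complex V 0.620 with 4 of 16, where 16.1% of all genes were 2-fold lower. Cytosolic ribosomal proteins had a median of 0.800 with 1 of 54 genes 2-fold lower, mitochondrial ribosomal proteins 0.821 with 13 of 74, and proteasome subunits 1.16 with 0 of 33. These groups were chosen after their values were seen and their differences from the subunits were not tested.

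In complex I, NDUFB9 had 1273 in MDA-MB-231, against 5803 in T-47D, a ratio of 0.219 and the only one below the band of the central 95% of genes. NDUFB10 followed with 1303 in MDA-MB-231, against 4434 in T-47D (0.294), and its second probe set gave 0.283. NDUFA2, NDUFB5, NDUFS7, NDUFA10 and NDUFB11 had ratios of 0.298, 0.299, 0.301, 0.304 and 0.321. Further complex I genes called 2-fold lower were NDUFA13, NDUFB7, NDUFC1, NDUFB1, NDUFB4, NDUFA3 and NDUFS6, with ratios of 0.360 to 0.486. Other subunits of the same complex hardly differed, and NDUFS4 had 1079 in MDA-MB-231, against 1090 in T-47D. NDUFB3 had 935 in MDA-MB-231, against 839 in T-47D, 1 of only 2 subunits with a ratio over 1, against 50.9% of all genes.

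In complex II, SDHC had 872 in MDA-MB-231, against 3785 in T-47D, a ratio of 0.230, and 3 further probe sets over 100 on all arrays gave 0.234 to 0.341. SDHA had 1159 in MDA-MB-231, against 1983 in T-47D (0.584), while SDHD had 1828 in MDA-MB-231, against 1575 in T-47D (1.16). The 2 membrane anchors of the complex therefore lay at opposite ends of the range. In complex III, UQCRC1 had 497 in MDA-MB-231, against 1761 in T-47D, a ratio of 0.282, UQCRC2 had 0.388 and UQCR11 0.459. UQCRQ, UQCRB and UQCR10 had 0.557, 0.570 and 0.712.

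In complex IV the genes called 2-fold lower in MDA-MB-231 were COX4I1 (3392 in MDA-MB-231, against 8730 in T-47D, a ratio of 0.389), COX6A1 (4975 and 10440 in the same order, 0.477) and COX5B (2789 and 5820, 0.479). COX8A, COX6B1, COX7A2 and COX7B had 0.622, 0.674, 0.792 and 0.822. In complex V the 3 c subunit genes differed, with ATP5MC2 at 2125 in MDA-MB-231, against 8570 in T-47D, a ratio of 0.248, against 0.725 for ATP5MC1 and 0.757 for ATP5MC3. ATP5ME (0.371), ATP5F1D (0.443) and ATP5MJ (0.482) were also called, while ATP5MK had 0.918 and ATP5PB, picked after its values were seen, had 0.970. The second probe set of ATP5ME gave 0.358, but that of ATP5F1D gave only 0.84, at 183 in MDA-MB-231, against 218 in T-47D. That of ATP5MJ went the other way, at 1334 in MDA-MB-231, against 1274 in T-47D, a ratio of 1.05. The calls of ATP5F1D and ATP5MJ thus rest on the brighter probe set alone.

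Genes that build and serve the complexes were read from lists. In T-47D with JPH203, TMEM126B, an assembly factor of the complex I membrane arm, was 2-fold higher, with 3613.5 with JPH203 and 1515 in the control, a ratio of 2.39, and it was the only one of 14 complex I assembly genes called. SDHAF4, which helps SDHA join complex II, had 378 with JPH203 and 181 in the control (2.09), 1 of 3 measured complex II assembly genes. Of all genes measured in T-47D, 4.64% were called and 2.23% were 2-fold higher, so lists this short hold few calls or none at that share. The lists for complex III assembly (5 genes), complex IV assembly (19), and ATP synthase assembly and its inhibitor (4) had 0 genes at 2-fold. Their medians were 1.17, 1.19 and 0.974 in this order. The list of subunits outside the rule and carriers of electrons or of ADP and ATP (7) also had 0 at 2-fold, with a median of 1.22. Regulators (8) had 0 at 2-fold and a median of 1.16. Over 11 genes of the tricarboxylic acid cycle, which feeds the chain with NADH and succinate, the median was 0.923, with 0 called. In MDA-MB-231 none of these lists had a gene called at 2-fold with JPH203, where 0.103% of all genes were called.

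The coactivators PPARGC1A and PPARGC1B, which raise expression of the whole set in muscle and brown fat, had signals of at most 31.5 on the 4 arrays, and NRF1 had 66.0 to 104. TFAM, which packages mitochondrial DNA and helps its transcription start, had 647 with JPH203 and 701 in the control of MDA-MB-231. In T-47D it had 532 with JPH203 and 390 in the control. These 4 regulators were picked after their values were seen. Between the control arrays, SURF1, a complex IV assembly factor, had 797 in MDA-MB-231, against 4036 in T-47D, a ratio of 0.198, and 8 of 18 complex IV assembly genes were 2-fold lower in MDA-MB-231 and 2 were 2-fold higher, where all genes had 16.1% lower and 16.3% higher. IDH2, the mitochondrial NADP-dependent isocitrate dehydrogenase, had 229 in MDA-MB-231, against 5326 in T-47D, a ratio of 0.0429. CS, citrate synthase, had 0.455 and MDH2 0.460, while of the 7 measured regulators 0 were called.

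**Figure D5:**
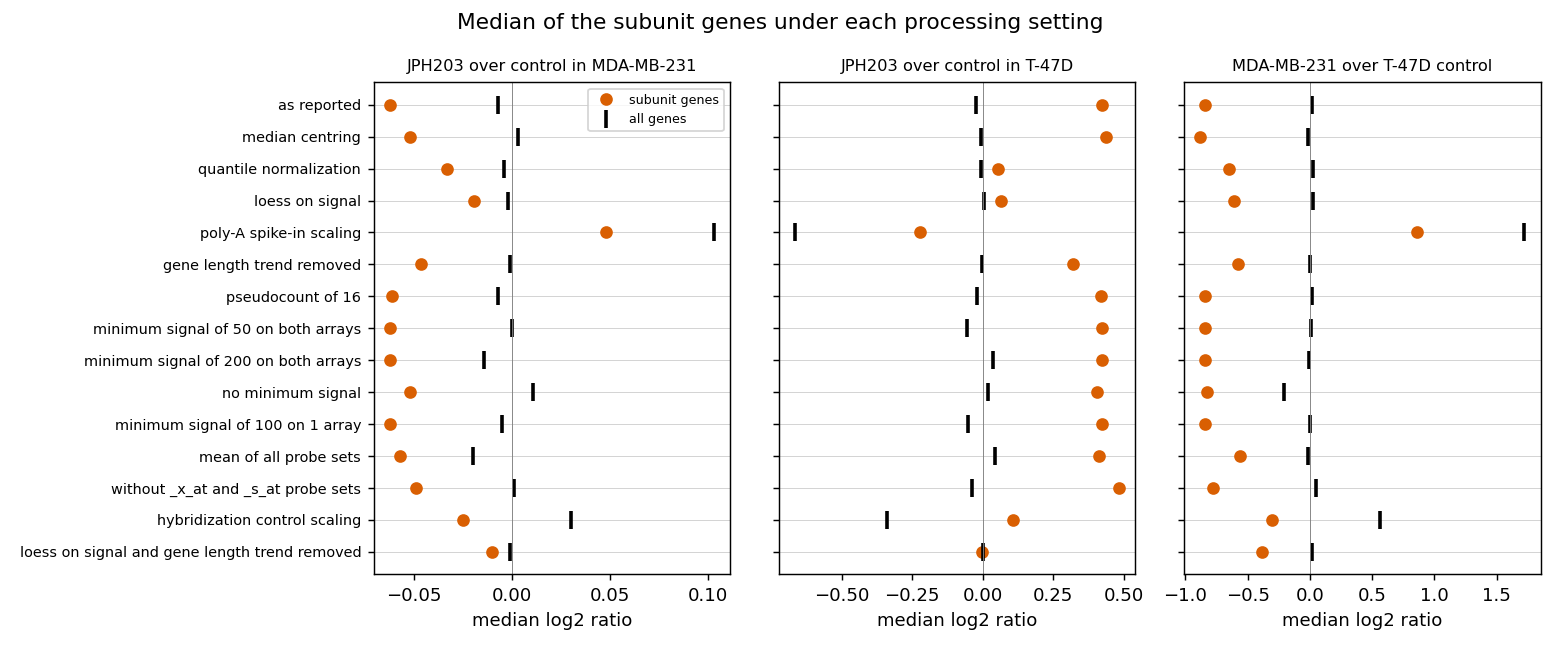
Median log2 ratio of the subunit genes (orange points) and of all genes (black ticks) under each processing setting, for JPH203 over control in each line (MDA-MB-231, then T-47D) and for the control arrays of MDA-MB-231 over T-47D. The horizontal scales differ between panels. In T-47D the subunits lie at 0.42 as reported, at 0.064 after loess on signal, at -0.22 after poly-A scaling and at -0.002 after removing both the signal and the length trend, and between the lines they lie below all genes under every setting shown, with only poly-A scaling above 0.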

How the data were processed

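The authors deposited linear signal intensity values for 54675 probe sets on 4 Affymetrix U133 Plus 2.0 arrays. The submitters' processing notes name GCOS, whose version and settings are not given in the sources used here. Trimmed of 2% of values at either end, each array had a mean of 100.0, as scaling to a target gives. Of the probe sets 41097 name 1 gene, 1801 several and 11777 none in the annotation used, and 41043 were matched by gene identifier to RefSeq GRCh38.p14 with 0 symbols changed. The rule gave 148 probe sets of 76 genes, and 27 probe sets of assembly factors, antisense transcripts and pseudogenes were dropped. Ratios, calls and medians were computed over all genes. With 1 array per condition no significance test was run, and the number of arrays limits precision. The members and lists were chosen with earlier results of these data known. Genes named were those called at 2-fold, up to 10 past 1.5-fold each way, the brightest of each complex, all of complexes II and III, tissue isoforms and list genes called at 2-fold, and any other is marked. Alternatives were median centring, quantile normalization, loess on signal (span 0.4), removal of the gene length trend, poly-A spike-in scaling, a pseudocount of 16, other minimum signals, a 3-fold threshold and other choices of probe set. Hybridization control scaling and the loess on both signal and length were added after seeing the data. The calling code was checked on simulated data before use, which says nothing of the variation between cultures. The work used Python 3.11.15, numpy 2.4.6, pandas 2.3.3, statsmodels 0.14.6 and matplotlib 3.10.9.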

Additional observations from a re-analysis of the deposited data

Results flagged for a closer look

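The median log2 ratio of the subunit genes with JPH203 was -0.062 in MDA-MB-231, against 0.42 in T-47D, so that MDA-MB-231 minus T-47D was -0.48. The signs were opposite as deposited, and both turned under poly-A scaling. This difference was not tested. NDUFB3 had a difference of -1.10 between the lines on the log2 scale, with a ratio of 0.968 in MDA-MB-231, against 2.08 in T-47D, where it lay above the central 95% of genes. NDUFV3 had a difference of -0.54, with a ratio of 0.703 in MDA-MB-231, below the central 95% of genes there, and 1.02 in T-47D. With the mean of all its probe sets the NDUFV3 ratios were 0.963 in MDA-MB-231, against 0.978 in T-47D. Neither difference was tested, and each rests on 1 probe set per gene.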

How the results depend on the processing

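No paired analysis was possible because each condition has 1 array and the labels carry no replicate numbers, and for the same reason no array could be left out. In MDA-MB-231 the counts of subunits at 2-fold and at 1.5-fold with JPH203, 0 each, became 3 and 4 without a minimum signal, and the median log2 ratio of -0.062 turned to 0.048 with poly-A spike-in scaling. In T-47D the 2-fold count of 2 was 0 at a 3-fold threshold, with poly-A scaling and with hybridization control scaling, 1 after quantile normalization, loess, removal of the length trend, and loess with the length trend removed, and 5 with the mean of all probe sets. The 1.5-fold count of 18 in T-47D was 2 after quantile normalization and after loess, 9 (all lower) with poly-A scaling, 10 after removal of the length trend, and 3 with hybridization control scaling and after loess with the length trend removed. The median log2 ratio of 0.42 in T-47D was 0.055, 0.064, 0.32 and 0.106 after quantile normalization, loess, removal of the length trend and hybridization control scaling, and it turned to -0.22 with poly-A scaling and to -0.002 after loess with the length trend removed. Between the control arrays the count of 25 was 10 at 3-fold and with hybridization control scaling, 14 after removal of the length trend, 12 with the mean of all probe sets, 11 without _x_at and _s_at probe sets and after loess with the length trend removed, and 30, all of them higher in MDA-MB-231, with poly-A scaling. The median log2 ratio of -0.84 between the control arrays was -0.65, -0.61, -0.57, -0.56, -0.30 and -0.39 after quantile normalization, loess, removal of the length trend, the mean of all probe sets, hybridization control scaling and loess with the length trend removed, and 0.86 with poly-A scaling. Poly-A scaling moved the median of all genes to 0.103 in MDA-MB-231, -0.67 in T-47D and 1.72 between the lines, and hybridization control scaling moved it to 0.03, -0.34 and 0.56. The cause of these changes was not tested. Median centring, the pseudocount and the other minimum signals kept every result above within 1.5 times its count or 0.1 of its log2 median, apart from the MDA-MB-231 counts named first.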
